A study of Saccharomyces cerevisiae with 21 samples.

Results

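The last harvest of a Saccharomyces cerevisiae wine fermentation, at 340 h, was compared with the harvest made 1 h after its start. The 3 arrays titled 340 hour and the 3 titled 1 hour were taken by their titles, 6 of the 21 arrays in the series. All 5656 genes that had a non-control probe set annotated to that gene alone were described. At 340 h the fermentation stood at about 10% ethanol by the design text, which gives no ethanol value for 1 h. Each time has 3 biological replicates, hybridised as biotin-labelled cRNA from total RNA to one-colour Affymetrix yeast arrays, and the other harvests were at 12, 24, 48, 60 and 120 h. The strain, the medium and the inoculum are not given in the sources used here, nor is what the replicate numbers 1 to 3 mark, so the p-values measure only the spread between these arrays.

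In a batch culture the yeast cell passes from fast growth to a long phase in which it ferments with little or no division. Growing cells spend most of their transcription on ribosomes, and when growth slows the genes for ribosomal proteins, for ribosome assembly and for RNA polymerases I and III are turned down together. Nitrogen usually runs short before sugar in grape must, and cells then express permeases and enzymes for poor nitrogen sources that a good source keeps silent. The synthesis of ergosterol, unsaturated fatty acids and haem needs molecular oxygen, and cells without it induce a hypoxic set of genes that includes sterol importers and the DAN and TIR wall mannoproteins. Trehalose and glycogen are the storage carbohydrates that yeast builds when growth stops, and trehalose also protects proteins and membranes.

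Values are log2 probe set summaries as deposited, on which a difference of 1 is a 2-fold difference. A change below is the mean at 340 h minus the mean at 1 h, given ± its standard error from a limma fit over all 21 arrays, with n = 3 arrays at each time. The words rose and fell are kept for genes with a Benjamini-Hochberg adjusted p under 0.05, adjusted over all 5656 genes. By that rule 3932 genes changed, which is 69.5% of those tested: 1802 rose (31.9%) and 2130 fell (37.7%). At least 2-fold changes were found for 1141 genes that rose (20.2%) and 1371 that fell (24.2%), and at least 16-fold changes for 51 that rose and 45 that fell. The 3 arrays of 340 h all lay above those of 1 h for 33% of the genes and all below them for 39%. The median change of all genes was -0.08 and the median standard error 0.20. With so large a share called, a list of genes stands out only where its share lies well away from these.

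**Figure D1:**
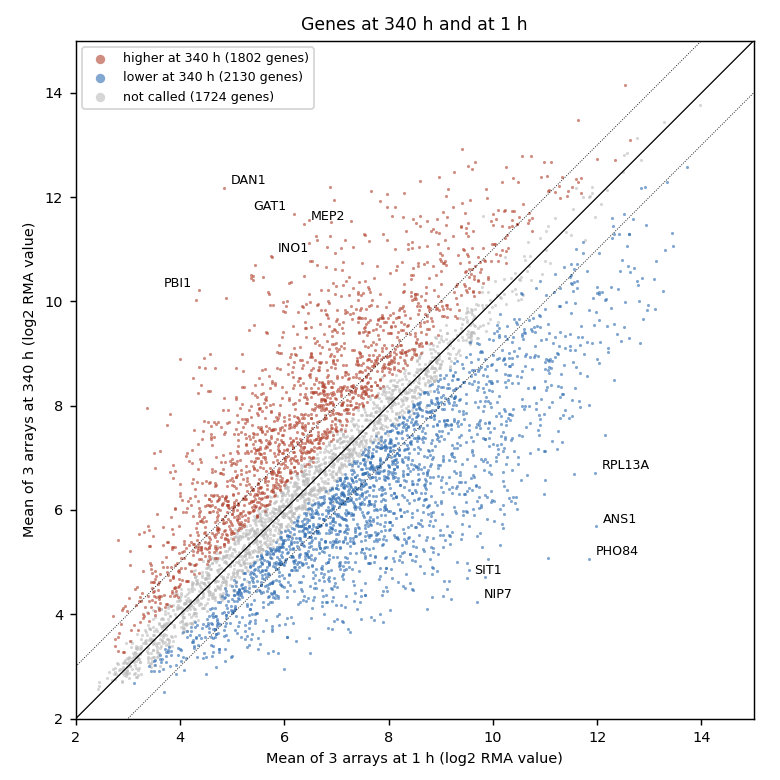
Mean log2 RMA value of each of the 5656 genes over the 3 arrays of 340 h (vertical axis) and the 3 of 1 h (horizontal axis), where the solid line marks equal values and the dotted lines 2-fold differences. The 1802 genes that rose lie above the line, with DAN1 farthest from it, and the 2130 that fell lie below it, with PHO84 farthest.

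The scale is relative, so a change in total mRNA cannot be seen on it. Less of a transcript in each cell and a smaller share of cells expressing it cannot be told apart either. Centring each array on its own median moved the median change by 0.18, which gave 2111 genes higher and 1853 lower, so 53.3% of the calls were rises in place of 45.8%. Centring on the median of 5 reference genes moved the median change by 0.74 and gave 3110 higher and 1123 lower, 73.5% rises, so that the sign of smaller falls depends on the scaling. That median passed from ALG9 or TAF10 at 1 h to UBC6 at 340 h. With each gene first set to its own mean, a choice made after seeing the data, the median change moved by 0.0097. That version gave 1778 genes higher and 2056 lower. Between arrays of 340 h Pearson's r over genes was 0.978 to 0.983, between arrays of 1 h 0.972 to 0.99, and between the times 0.69 to 0.722. Controls for RNA quality moved with the harvest. The 5 probe sets for 18S ribosomal RNA averaged 12.1, 10.1 and 12.0 on the 340 h arrays, against 9.65, 9.29 and 9.52 on the 1 h arrays. The 3' minus 5' difference of ACT1 was 1.71, 2.74 and 1.74 at 340 h, against 1.16, 1.25 and 1.11 at 1 h. Neither control overlapped between the harvests, and each gave p = 0.1 in the exact permutation test, the smallest that 3 against 3 arrays allow. The part of RNA quality in the changes below was not tested. The 1 h replicate 3 was the lowest of its group for PHO84, SIT1, MEP2, GAP1, PST1 and PHM8, 6 genes picked out after their values were seen. It was also the lowest for others given below, among them NDE1, ELO1 and ATG8, whose changes without it are not given. Without that array PST1 changed by 2.34 in place of 3.43, GAP1 by 1.45 in place of 1.97, and MEP2, PHM8, SIT1 and PHO84 by 4.46, 3.61, -5.03 and -7.13, and all 6 kept their calls.

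DAN1, a wall mannoprotein of cells grown without oxygen, rose more than any other gene. It read 12.27, 12.16 and 12.11 at 340 h, against 4.87, 4.55 and 5.11 at 1 h, a change of 7.33 ± 0.16 or 161-fold (limma adjusted p = 7.4e-20). The rankings here are among called protein-coding genes without overlap, leaving out probe sets of the shared type, which may also match similar sequences. PAU23, at 4.99 ± 0.24, was among those left out. The next largest rises were those of PBI1 at 5.85 ± 0.24 and of RSB1, a membrane protein that moves sphingoid long-chain bases, at 5.72 ± 0.38. GAT1, a GATA activator of genes for poor nitrogen sources, read 11.95, 11.38 and 11.70 at 340 h, against 6.09, 6.35 and 6.09 at 1 h, a change of 5.50 ± 0.25. All 3 arrays of 340 h were above 11 for GAT1 and all 3 of 1 h below 7. TPO4, a polyamine exporter, rose by 5.25 ± 0.29 and YSR3, a dihydrosphingosine phosphate phosphatase, by 5.14 ± 0.22. INO1, the inositol phosphate synthase that starts inositol synthesis, read 10.70, 10.98 and 10.96 at 340 h, against 5.50, 5.60 and 6.11 at 1 h. That is a 35.3-fold rise, with no overlap between the harvests, which the ranking required. The list is completed by the ammonium permease MEP2 (5.12 ± 0.44), the glucokinase relative EMI2 (5.08 ± 0.21), the methionine permease MUP3 (5.01 ± 0.24), the uncharacterised YML083C (4.90 ± 0.23) and the glycogen synthase GSY2 (4.87 ± 0.36).

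PHO84, the high-affinity phosphate transporter, fell more than any other gene. It averaged 5.07 over the 340 h arrays, with 5.36 the highest and 4.85 the lowest, against 12.23, 12.17 and 11.11 at 1 h, a change of -6.77 ± 0.24 (limma adjusted p = 5.5e-16). The harvests were 109-fold apart. ANS1, a gene of unknown function, read 5.99, 5.96 and 5.12 at 340 h, against 12.13, 11.92 and 11.88 at 1 h, and so fell by 6.29 ± 0.27. The ranking again left out probe sets of the shared type, among them that of the ribosomal protein RPL7B at -5.96 ± 0.21. Of the other 10 largest falls ranked in that way, 7 were of genes for making ribosomes and proteins. These were the 60S assembly factors NIP7 (-5.46 ± 0.25), NSA2 (-4.68 ± 0.29) and YVH1 (-4.69 ± 0.21), the ribosomal protein RPL13A (-5.24 ± 0.17), the RNA polymerase I subunit RPA49 (-5.13 ± 0.26), the tRNA methyltransferase subunit TRM11 (-4.80 ± 0.29) and the tyrosyl-tRNA synthetase TYS1 (-4.70 ± 0.21). The remaining ones were the homocysteine methyltransferase SAM4 (-4.90 ± 0.21), the uridine permease FUI1 (-4.85 ± 0.23) and the siderophore transporter SIT1 (-4.81 ± 0.19).

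**Figure D2:**
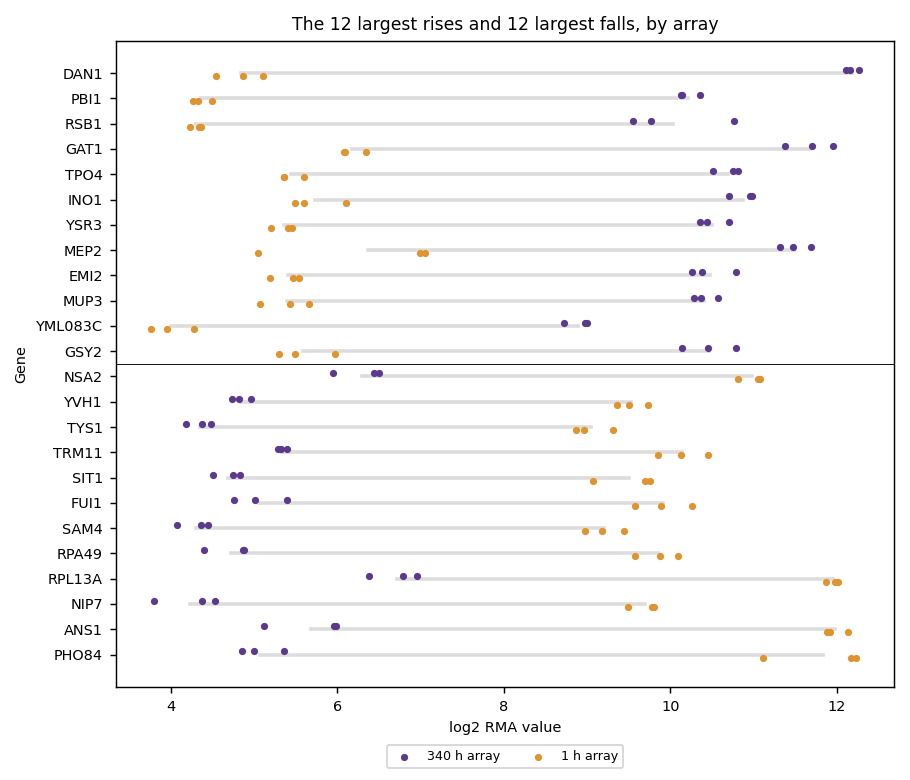
log2 RMA value on each array for the 12 genes that rose most (upper block) and the 12 that fell most (lower block), with the 340 h arrays in purple, the 1 h arrays in orange and a grey bar between the means. They were ranked among called protein-coding genes without overlap, leaving out probe sets of the shared type. The harvests are far apart for every one of the 24 genes, which were chosen for that, and the 1 h array at 5.05 for MEP2 and that at 11.11 for PHO84 are both replicate 3.

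Genes for making proteins fell almost without exception. Of 130 measured genes of ribosome biogenesis, 127 fell and 2 rose, with a median change of -3.12 against -0.08 for all genes. The rises were of MTR4, the RNA helicase of the nuclear exosome, at 2.52 ± 0.19, and RCL1 at 1.05, which was named after its value was seen. MTR4 read 10.94, 10.29 and 10.39 at 340 h, against 7.93, 8.03 and 8.09 at 1 h. All 33 measured proteins of the small ribosomal subunit fell (median -2.18), as did 46 of 47 of the large subunit (median -2.48). RPL13A, whose protein sits in the large subunit, read 6.38, 6.96 and 6.79 at 340 h, against 11.97, 11.87 and 12.01 at 1 h. The exception was RPL15B, also picked out after its value was seen, which read 9.41, 9.87 and 9.37 at 340 h, against 9.65, 9.63 and 9.42 at 1 h, a change of -0.02 ± 0.21. Of the ribosomal protein genes, 14 of the large and 16 of the small subunit were on probe sets of the shared type. That type takes in every probe set with an added suffix in its name. Some of these may match similar sequences too, so copies of a gene may share signal.

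The polymerases and factors that serve ribosomes went the same way. Of 19 subunits of RNA polymerases I and III, 18 fell (median -2.55), among them RPA43 (-4.49 ± 0.30) and RPC19 (-4.41 ± 0.27). The one that did not pass was RPO31, the largest subunit of polymerase III, at 0.11, a gene named after its value was seen. All 20 measured cytosolic tRNA synthetases fell (median -2.30), and each of them fell at least 2-fold. Of 33 translation factors 29 fell and 1 rose. TEF4, a gamma subunit of elongation factor 1B, read 5.42, 6.20 and 5.74 at 340 h, against 9.65, 9.85 and 10.54 at 1 h. Its counterpart CAM1, also a gamma subunit of that factor, was the member that rose, by 0.72 ± 0.22, and its arrays overlapped between the harvests. Genes for the ribosomes of mitochondria did not share in this: of 69 measured, 27 fell, close to the share of all genes, and 13 rose, a smaller share than that of all genes, with a median of -0.27 that was positive (0.47) after centring on 5 reference genes.

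**Figure D3:**
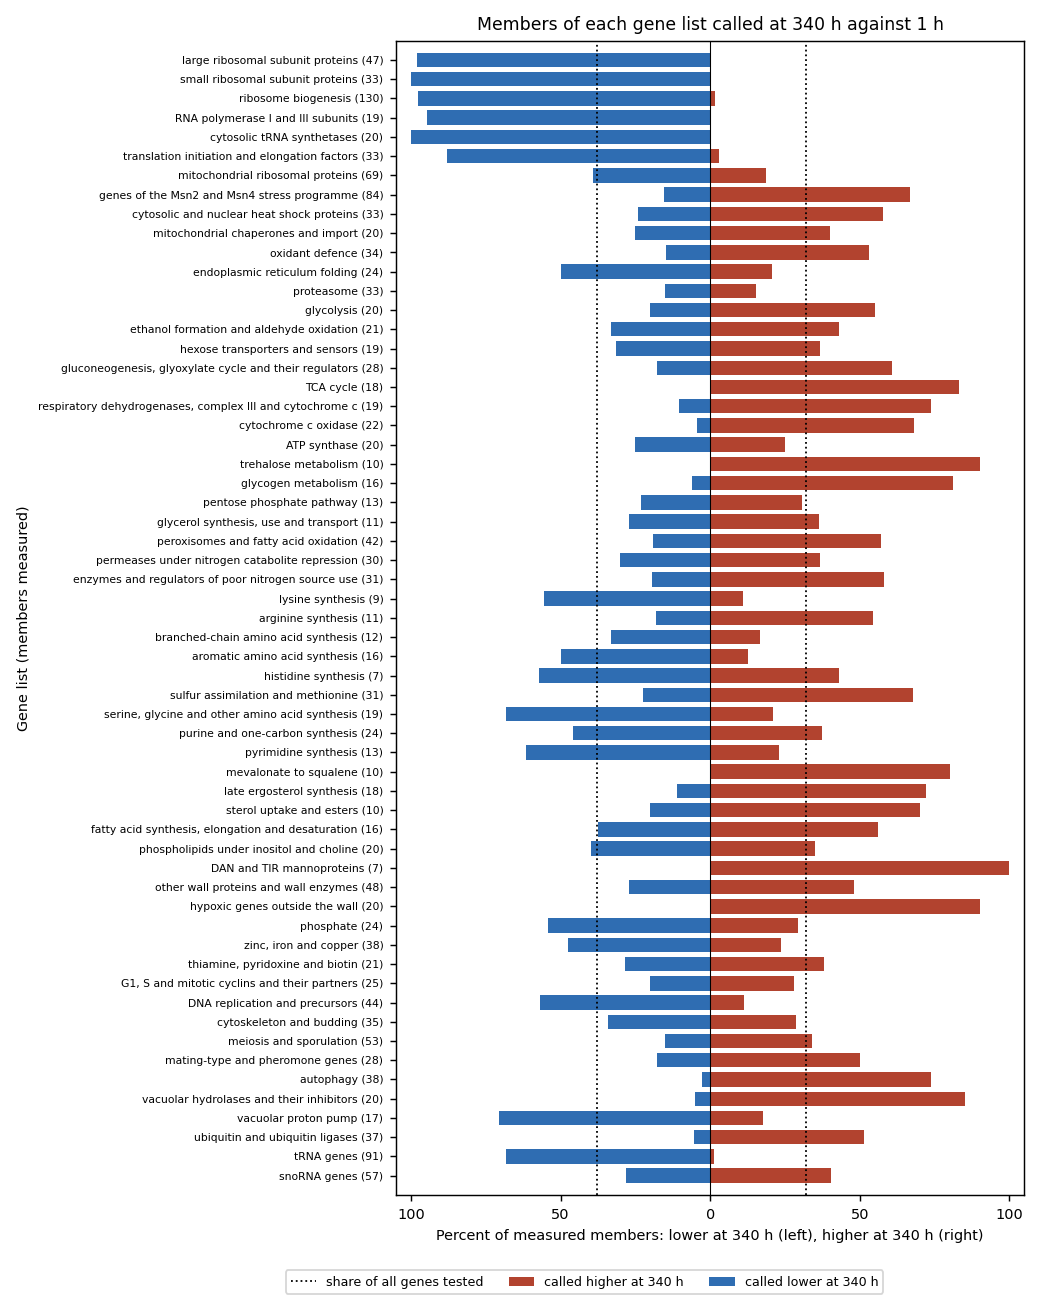
Share of the measured members of each gene list that rose (bars to the right) or fell (bars to the left) at 340 h against 1 h, with the number of measured members in brackets and dotted lines at the shares of all 5656 genes, 31.9% and 37.7%. The lists for cytosolic protein synthesis reach 87.9% to 100% lower, whereas the DAN and TIR mannoproteins, trehalose metabolism and the hypoxic genes reach 90% to 100% higher.

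Storage carbohydrates and the citric acid cycle were where carbon genes rose most evenly. Of 10 genes of trehalose metabolism 9 rose (median 2.00) and of 16 of glycogen metabolism 13 rose and 1 fell (median 1.80). TPS1, which makes trehalose 6-phosphate, read 10.22, 9.52 and 9.64 at 340 h, against 6.25, 6.05 and 6.50 at 1 h. GSY2, which builds the glycogen chain, read 10.79, 10.45 and 10.14 at 340 h, against 5.49, 5.98 and 5.30 at 1 h. Genes that break these stores down rose as well: GPH1, the glycogen phosphorylase, by 3.82 ± 0.46, and the trehalases NTH1 and ATH1 by 0.98 and 1.91, of which the trehalases were named after their values were seen. GLG2, a self-glucosylating primer of glycogen, was the member that fell, by 0.59 ± 0.23. That call was lost under array-median centring (limma adjusted p = 0.12), quantile normalization (0.081), both centrings on reference genes and 3 of the fits that leave out an array, and its sign turned in 1 of them, the plain centring on reference genes. In the citric acid cycle 15 of 18 genes rose and none fell, with a median of 1.20. The subunits of isocitrate dehydrogenase led it, IDH1 at 3.21 ± 0.22 and IDH2 at 3.03 ± 0.25.

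The respiratory chain split by complex. Of 19 genes for its dehydrogenases, complex III and cytochrome c, 14 rose and 2 fell (median 1.82), and of 22 for cytochrome c oxidase 15 rose and 1 fell (median 0.83). CYT1, cytochrome c1, read 9.96, 10.28 and 9.51 at 340 h, against 5.89, 6.06 and 6.12 at 1 h. NDE1, the external NADH dehydrogenase, went the other way, with 8.02, 8.29 and 7.65 at 340 h, against 10.55, 10.79 and 10.31 at 1 h. Both aerobic and hypoxic forms of 2 components rose: COX5A by 0.69 ± 0.22 and its hypoxic form COX5B by 3.08 ± 0.25, CYC1 by 1.95 ± 0.47 and its hypoxic form CYC7 by 4.22 ± 0.28. Of 20 genes for the ATP synthase, by contrast, 5 rose and 5 fell, and the median of -0.10 turned positive under array-median centring (0.073), quantile normalization (0.023) and centring on 5 reference genes (0.64). Of those that rose, STF2 (2.77 ± 0.22) and STF1 (1.67 ± 0.16) act with the inhibitor of the enzyme and are not subunits of it. TIM11, which holds its dimers together, fell by 2.29 ± 0.22. The difference between the lists themselves was not tested.

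In sugar uptake and glycolysis the genes exchanged places. HXK2, the main hexokinase of cells on abundant glucose, read 7.48, 7.09 and 6.81 at 340 h, against 11.07, 10.84 and 11.01 at 1 h. HXK1, which glucose represses, read 10.46, 10.55 and 10.84 at 340 h, against 7.12, 6.86 and 6.96 at 1 h, and the glucokinase GLK1 rose by 3.69 ± 0.22. All 3 kinases, picked for their large changes, had arrays that did not overlap between the harvests. The same was so for 33% of all genes on the higher side and 39% on the lower. Among 19 hexose transporters and sensors 7 rose and 6 fell, near the shares of all genes. HXT2, HXT5 and HXT1 fell, by 3.51 ± 0.52, 2.85 ± 0.20 and 1.87 ± 0.23. HXT6 and HXT7, high-affinity transporters on probe sets they may share, rose by 1.57 ± 0.27 and 1.06 ± 0.28, and HXT3 had a change of 0.17 ± 0.18. Of 20 glycolytic genes 11 rose and 4 fell. PDC1, the main pyruvate decarboxylase, rose by 0.74 ± 0.16, ADH1, which makes the ethanol, had a change of 0.29 ± 0.13 that did not pass, although it passed as higher under 4 alternatives (array-median and reference-gene centring, quantile normalization, and a trended robust variance), and ADH2, which oxidises ethanol and is repressed by glucose, fell by 1.61 ± 0.19. PCK1, a key enzyme of gluconeogenesis, fell by 2.47 ± 0.28, although 17 of the 28 genes of gluconeogenesis, the glyoxylate cycle and their regulators rose.

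Among permeases for nitrogen sources large rises stood beside large falls. Of 30 permeases that a good nitrogen source represses or otherwise governs, 11 rose and 9 fell, near the shares of all genes. MEP2, the high-affinity ammonium permease, read 11.69, 11.32 and 11.47 at 340 h, against 7.00, 7.05 and 5.05 at 1 h. The spread at 1 h came from replicate 3, and the general amino acid permease GAP1 showed the same, with 9.71, 9.43 and 9.09 at 340 h, against 7.98, 7.93 and 6.39 at 1 h. DAL5 for allantoate and DUR3 for urea rose by 1.94 ± 0.21 and 1.61 ± 0.27. Among the permeases that fell, TAT1, for tyrosine, tryptophan and branched-chain amino acids, read 4.40, 4.48 and 4.56 at 340 h, against 9.10, 8.73 and 9.54 at 1 h, and the glutamine permease GNP1 fell by 3.96 ± 0.23. Among 31 enzymes and regulators for poor nitrogen sources 18 rose and 6 fell, led by GAT1, the GABA pathway enzyme UGA2 (3.09 ± 0.29) and the glutamate synthase GLT1 (2.62 ± 0.19).

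The lists of amino acid synthesis did not share one direction. Of 31 genes for sulfate assimilation and methionine 21 rose and 7 fell, with a median of 1.94. MET13, a methylenetetrahydrofolate reductase for methionine synthesis, read 10.84, 9.56 and 10.16 at 340 h, against 5.76, 5.78 and 5.54 at 1 h. STR3, which makes homocysteine from cystathionine, rose by 4.27 ± 0.35 and the sulfate permease SUL2 by 3.74 ± 0.22, whereas CYS4, the cystathionine beta-synthase of the opposite direction, fell by 2.34 ± 0.14. For serine, glycine and several other amino acids 13 of 19 genes fell, and for aromatic amino acids 8 of 16. Histidine synthesis showed no common direction, with 3 of 7 genes higher and 4 lower. Its largest change was that of HIS4, an enzyme of several steps, with 11.48, 11.35 and 11.73 at 340 h, against 7.20, 6.61 and 6.87 at 1 h. For pyrimidines 8 of 13 genes fell, and the CTP synthase URA7 fell by 4.18 ± 0.18. In purine and one-carbon synthesis 9 of 24 rose (37.5%) and 11 fell (45.8%), not far from the 31.9% and 37.7% of all genes. ADE3 changed by 3.87 ± 0.14 and the GMP synthase GUA1 by -3.73 ± 0.18.

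Most genes of sterols and of life without oxygen rose. All 7 DAN and TIR mannoproteins rose (median 3.70), and 18 of 20 hypoxic genes outside the wall rose with none lower (median 1.89). TIR3 read 12.33, 12.39 and 12.18 at 340 h, against 8.43, 8.65 and 8.72 at 1 h. HEM13, the oxygen-dependent coproporphyrinogen oxidase of haem synthesis, read 11.19, 11.32 and 11.27 at 340 h, against 6.38, 6.44 and 6.98 at 1 h. UPC2, an activator of sterol and DAN genes, rose by 3.07 ± 0.24. The sterol importers AUS1 and PDR11 rose by 3.97 ± 0.22 and 4.07 ± 0.26, and the sterol esterifying enzyme ARE1 by 4.39 ± 0.22. Of the 10 genes for sterol uptake and esters, DAN1 among them, 7 rose and 2 fell, and SUT2, a transcription factor linked to sterol uptake, fell by 3.15 ± 0.17. From acetyl-CoA to squalene 8 of 10 genes rose (median 1.51), with HMG1 at 2.89 ± 0.30 and HMG2 at 2.31 ± 0.20, both HMG-CoA reductases, and of the 18 genes of late ergosterol synthesis 13 rose and 2 fell. ERG4, the last enzyme of that pathway, was among the falls, with 8.68, 8.64 and 9.34 at 340 h, against 11.05, 11.02 and 11.08 at 1 h.

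Fatty acid elongation divided by chain length. ELO1, which lengthens medium-chain fatty acids, read 10.80, 11.02 and 11.32 at 340 h, against 6.92, 6.90 and 6.65 at 1 h. ELO2 and ELO3, which make the very long chains of sphingolipids, fell by 3.85 ± 0.20 and 3.70 ± 0.18, and TSC13, a reductase of the same very-long-chain cycle, by 3.30 ± 0.17. Each of the 4 genes had arrays of 340 h wholly on one side of those of 1 h. So did 33% of all genes on the higher side and 39% on the lower, and these 4 were picked for large changes. In the wider list of 16 genes for fatty acid synthesis, elongation and desaturation 9 rose and 6 fell. OLE1, the fatty acid desaturase, rose by 0.70 ± 0.15. In the wall beyond the mannoproteins 23 of 48 genes rose and 13 fell. PIR3 rose by 4.53 ± 0.37, and PST1, a protein of damaged walls, read 12.35, 12.26 and 12.53 at 340 h, against 10.04, 10.05 and 6.78 at 1 h, where replicate 3 again lay lowest.

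The stress programme of the activators Msn2 and Msn4 rose in large part, but some of its best-known members fell. Its 84 measured genes had a median change of 1.45, and 56 rose while 13 fell. PHM8, a nucleotidase, read 10.72, 10.65 and 10.72 at 340 h, against 7.33, 6.84 and 5.71 at 1 h. HSP12, a membrane-protecting protein often used to mark this response, read 8.15, 8.68 and 8.54 at 340 h, against 10.28, 10.22 and 10.19 at 1 h. GRE1, a hydrophilin, fell by 2.87 ± 0.31. CTT1, the cytosolic catalase, and SOD2, the mitochondrial superoxide dismutase, had changes of -0.25 ± 0.23 and -0.40 ± 0.26 that did not pass. Genes for storage carbohydrates belong to this programme too and are counted in it.

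Among 33 cytosolic and nuclear heat shock proteins 19 rose and 8 fell (median 0.69). APJ1, a J-protein of the nucleus, read 9.46, 9.37 and 9.63 at 340 h, against 6.36, 6.48 and 6.33 at 1 h. SSA1, a cytosolic Hsp70 on a probe set of the shared type, read 14.15, 14.14 and 14.15 at 340 h, against 12.55, 12.47 and 12.55 at 1 h. Those 340 h values were the highest of the 5656 genes on each array. HSP26, HSP30 and HSP104 rose by 1.85 ± 0.35, 1.57 ± 0.24 and 0.94 ± 0.21. The largest falls in the list were those of CNS1, an Hsp90 partner, by 3.26 ± 0.22, and SSZ1, of the ribosome-bound complex, by 2.51 ± 0.18. SSA3, another cytosolic Hsp70, fell by 2.06 ± 0.17 where SSA1 rose. For defence against oxidants 18 of 34 genes rose and 5 fell, with the sulfiredoxin SRX1 at 2.62 ± 0.31 and the nitric oxide dioxygenase YHB1 at -3.13 ± 0.26. Of 24 genes for folding in the endoplasmic reticulum 5 rose and 12 fell. Their median of -0.51 was 0.23 after centring on 5 reference genes, and of 33 proteasome genes 5 rose and 5 fell.

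Several of the large falls were of iron and phosphate transporters. Of 38 genes for zinc, iron and copper 9 rose and 18 fell, and their median of -0.41 was 0.33 on the 5 reference genes. FET3 and FTR1, the oxidase and the permease of high-affinity iron uptake, fell by 3.83 ± 0.19 and 3.95 ± 0.28. SIT1, which takes up iron bound to siderophores, read 4.74, 4.50 and 4.83 at 340 h, against 9.69, 9.76 and 9.07 at 1 h. FET4, a low-affinity transporter of ferrous iron that is among the hypoxic genes, went the other way, with 9.61, 9.29 and 9.32 at 340 h, against 5.75, 5.45 and 5.74 at 1 h. Of 24 phosphate genes 7 rose and 13 fell. The PHO genes did not move together: PHO84 fell as above, the low-affinity transporter PHO90 fell by 2.05 ± 0.17, and PHO80, the cyclin that holds the pathway off, rose by 2.94 ± 0.20.

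Genes for breakdown in the vacuole were mostly higher at 340 h. Of 38 autophagy genes 28 rose and 1 fell, and of 20 vacuolar hydrolases and their inhibitors 17 rose and 1 fell. ATG8, the ubiquitin-like protein of the autophagosome membrane, read 11.58, 11.77 and 11.40 at 340 h, against 8.96, 9.29 and 8.55 at 1 h. APE1, the aminopeptidase that reaches the vacuole by a form of autophagy, rose by 4.41 ± 0.22. The proton pump of the same vacuole went against them: 12 of its 17 genes fell and 3 rose, with a median of -0.59 that was 0.15 on the 5 reference genes. Of 44 genes for DNA replication and its precursors 25 fell and 5 rose, among the falls SLD5 of the GINS complex (-3.43 ± 0.24) and the primase PRI1 (-2.36 ± 0.17). Of 25 cyclins and their partners 7 rose (28%) and 5 fell (20%), against 31.9% and 37.7% of all genes. CDC28, the kinase itself, read 5.86, 6.57 and 6.19 at 340 h, against 8.65, 8.49 and 8.51 at 1 h, while the mitotic kinase CDC5 rose by 1.81 ± 0.25 and the B-type cyclin CLB2 had a change of 0.19 ± 0.20. Of 53 genes of meiosis and sporulation 18 rose and 8 fell, close to the share of all genes for the rises, and IME1, the master activator of meiosis, had a change of -0.15 ± 0.18.

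The array carries genes specific to a-cells, to alpha-cells or to haploid cells, and no cell type is named from them here. Only some genes of each kind are given below. Whether the others of that kind went the same way is not shown. The a-factor gene MFA1, on a probe set of the shared type, rose by 2.88 ± 0.20. RME1, a haploid repressor of meiosis, and STE5, the scaffold of the pheromone pathway, rose by 2.99 ± 0.31 and 2.45 ± 0.29. STE20, the kinase at the head of that pathway, fell by 1.78 ± 0.15. In all, 14 of 28 mating-type and pheromone genes rose and 5 fell. The a-factor receptor and alpha-factor genes, STE3, which fell by 0.61, and MF(ALPHA)1, at 0.12 and not called, are alpha-specific and were named after their values were seen.

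Of 99 measured paralogue pairs 18 had members called in opposite directions, while in 29 pairs both rose and in 11 both fell. With 31.9% of all genes higher and 37.7% lower, pairs of unrelated genes would often be opposite too. That share was not worked out, so the count does not set duplicated genes apart. Some genes, PDC1 and SSA1 among them, are counted in several pairs. Of those 18 pairs, 8 were still opposite when the arrays were centred on the median of 5 reference genes, where the falls of FKS1, HYP2, TDH3 and ENO2 given below lost their calls and those of FKS1 and HYP2 turned sign. Under the other alternatives 14 to 18 of them were still opposite, where 14 is all of those tested on unshared probe sets. All 18 were still opposite with each reference gene first set to its own mean. The widest gap was that of the hexokinases HXK1 and HXK2 given above. URA10, a minor orotate phosphoribosyltransferase, rose by 2.84 ± 0.34, and its major form URA5 fell by 3.09 ± 0.16. RAS2 read 7.85, 7.86 and 7.76 at 340 h, against 5.99, 5.86 and 5.83 at 1 h, and RAS1, the other Ras GTPase, read 4.33, 4.37 and 4.35 at 340 h, against 6.16, 6.55 and 6.40 at 1 h. Neither RAS2 nor RAS1 overlapped between the harvests, as was so for 33% of all genes on the higher side and 39% on the lower. RAS1 at 340 h lay under 5, the mean level below which an alternative left genes out. GSC2, a stress-induced subunit of glucan synthase, rose by 2.85 ± 0.30, and FKS1, the subunit of growing cells, fell by 0.66 ± 0.17. ANB1, the hypoxic form of translation factor eIF5A, rose by 1.59 ± 0.21, and its aerobic form HYP2 fell by 0.69 ± 0.18. Among glycolytic pairs, TDH1 rose by 1.71 ± 0.27 and TDH3 fell by 1.05 ± 0.14, and ENO1 rose by 1.84 ± 0.16 and ENO2 fell by 0.99 ± 0.25. TDH3, ENO1 and ENO2, with SSA1 and RNR3 of other pairs, are on probe sets of the shared type, so that signal from one copy may enter the value of the other.

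**Figure D4:**
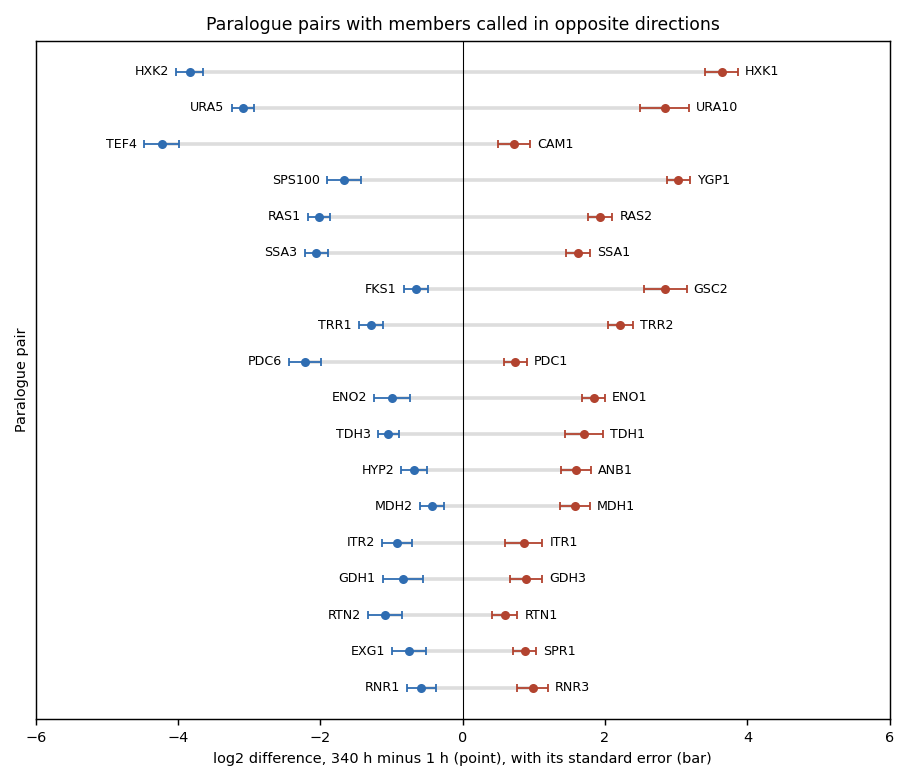
Difference of 340 h minus 1 h on the log2 scale, with its standard error from limma, for both members of the 18 paralogue pairs called in opposite directions, ordered by the gap between members. HXK1 and HXK2 lie farthest apart, at 3.64 and -3.84, and RNR3 and RNR1 closest, at 0.98 and -0.58.

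The harvests between the ends show when these changes appeared. Against the same 1 h arrays, 3287 genes had changed at 24 h (58.1%), 1451 of them higher (25.7%) and 1836 lower (32.5%), and 3799 at 120 h (67.2%; 33.3% higher and 33.9% lower). From one harvest to the next, 3393 genes changed between 1 and 12 h, 117 between 12 and 24 h, and 2427 between 120 and 340 h. Ribosome biogenesis was already low at 12 h, with list medians relative to 1 h of -1.99 at 12 h and -1.73 at 24 h, then -2.30 at 48 h, -2.42 at 60 h, -2.69 by 120 h and -3.12 by 340 h. At 24 h all 130 of its genes were lower than at 1 h. The proteins of the large subunit took another path, with medians of -0.29, -0.27, -0.62, -1.28, -1.89 and -2.48 at the same times, and only 9 of 47 were lower at 24 h. DAN1 was near its 340 h level from 12 h on, with means of 4.84, 12.56, 12.48, 12.12, 11.67, 11.44 and 12.18 from 1 to 340 h. INO1 came later and averaged 5.74, 5.48, 5.55, 8.46, 9.77, 10.65 and 10.88 over the same 7 harvests.

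Several lists changed direction on the way to 340 h. The genes of complex III, cytochrome c and the respiratory dehydrogenases had medians of -0.08 at 12 h and 0.14 at 24 h, then 1.68 at 48 h, 2.14 at 60 h, 2.37 by 120 h and 1.82 by 340 h. The ATP synthase genes had 0.16, 0.04, 1.11, 1.34, 0.98 and -0.10 at those times, so the 2 lists, close at 24 h, lay farthest apart at the end. Heat shock proteins lay below their 1 h level at every harvest from 12 to 120 h, with medians between -0.62 and -0.71, and above it only at 340 h. APJ1 changed by 2.15 ± 0.16 and BTN2, a chaperone-like sorting factor, by 3.41 ± 0.22 from 120 to 340 h, with limma adjusted p of 4.3e-10 and 7e-11.

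**Figure D5:**
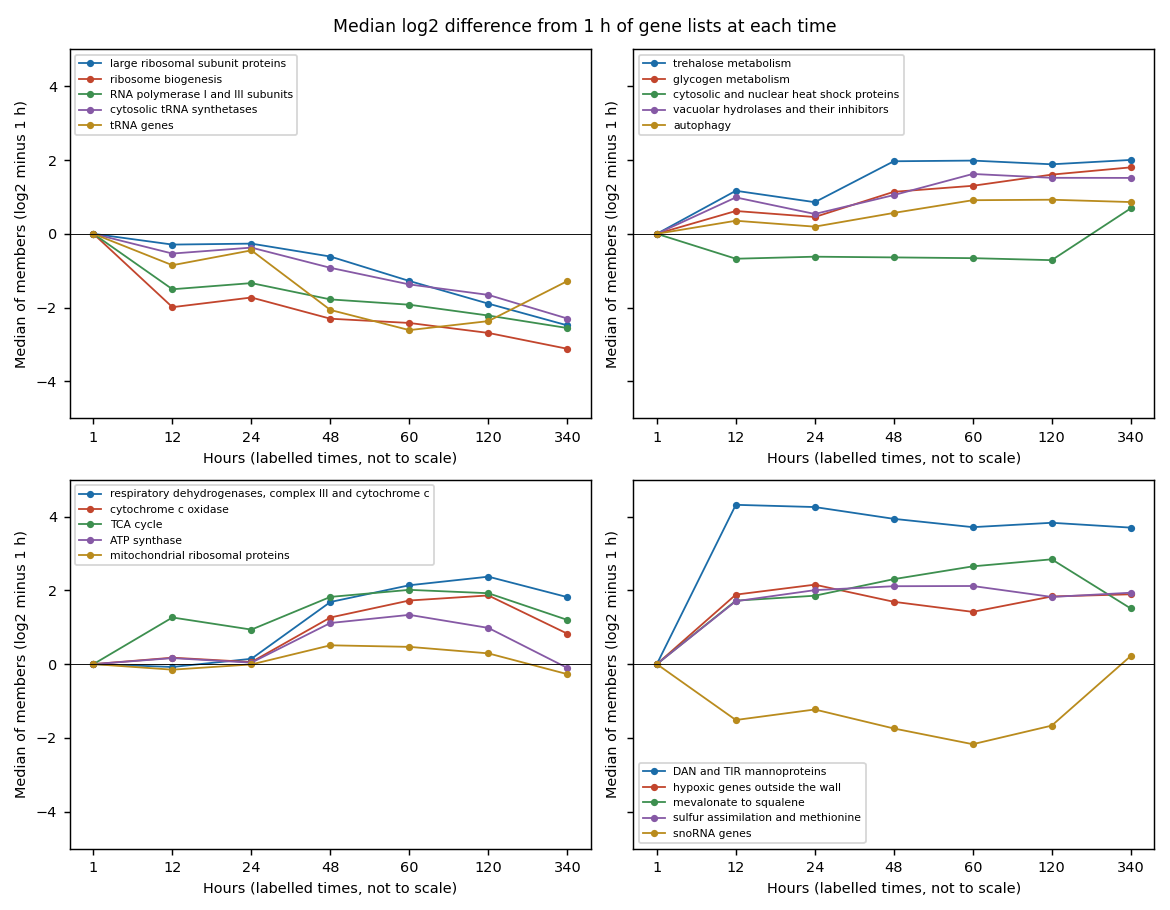
Median over the measured members of each gene list of the log2 difference from 1 h, at the 7 harvests from 1 to 340 h (equally spaced, not to scale). Ribosome biogenesis lay at -1.99 by 12 h and the large subunit proteins at -0.29, heat shock proteins passed the 1 h level only at 340 h, the ATP synthase returned to it, and snoRNA genes were low between the ends.

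Comparing the ends alone misses what came and went. Of the 5656 genes, 1650 (29.2%) were alike at the ends, meaning that they were not called and differed by under 0.5. Among those 1650, 550 (33.3%) were higher and 383 (23.2%) lower in the 5 harvests between than at the ends, by a limma contrast of those harvests with both ends. These are 9.72% and 6.77% of all genes. Which direction is the more frequent depends on the scaling: centring on the 5 reference genes gave 310 higher and 398 lower, and, with each gene first set to its own mean, 340 higher and 651 lower. GCV1, a subunit of the glycine cleavage system, averaged 5.64 at 1 h, 9.12 at 12 h and 9.27 at 24 h, then 8.51 at 48 h, 7.41 at 60 h, 6.36 by 120 h and 5.96 by 340 h. Its ends differed by 0.33 ± 0.18, which did not pass. The other genes highest between the ends were HPA3, BIO2 of biotin synthesis, AIM20, PST2 and GSH2 of glutathione synthesis, which lay 2.05 to 2.21 above the ends. After centring on array medians GCV1, BIO2, AIM20, PST2 and GSH2 themselves passed as higher at 340 h than at 1 h, by 0.44 to 0.55. Of 25 cyclins and their partners, 9 were alike at the ends and higher between.

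The opposite path was that of YMR244W, an uncharacterised gene, with means of 10.48 at 1 h, 4.91 at 12 h and 5.05 at 24 h, then 5.09 at 48 h, 6.03 at 60 h, 6.85 by 120 h and 10.03 by 340 h. BTN2 averaged 9.80 at 1 h, between 6.10 and 7.18 at the harvests between, and 9.87 at 340 h. Of the 6 genes lowest between the ends, 4 were small nucleolar RNAs, which guide the modification of ribosomal RNA: SNR76, SNR75, SNR64 and SNR71. Across 57 snoRNA genes 23 rose (40.4%) and 16 fell (28.1%) from end to end, against 31.9% and 37.7% of all genes. Of the 57, 14 were alike at the ends and lower between. Their list medians relative to 1 h were -1.52 at 12 h and -1.23 at 24 h, then -1.74 at 48 h, -2.17 at 60 h, -1.67 by 120 h and 0.22 by 340 h. Of 91 tRNA genes 62 fell and 1 rose, 88 of them on probe sets of the shared type, with a lowest median of -2.61 at 60 h and -1.28 at 340 h. The 18S controls read from 5.86 to 9.69 on the 15 arrays of 12 to 120 h, of which all 15 lay below the 340 h arrays and 12 below the 1 h arrays. Whether the ribosomal RNA signal bears on these paths was not tested.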

How the data were processed

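The authors deposited log2 probe set values of 21 arrays, made with RMA in the affy package per the submitters' processing notes, which give no version, parameters or genome build. Which arrays were normalized together is not given in the sources used here. The 3 arrays of each harvest were grouped by their titles. Arrays have no read depth, and their number (3 a group) limits the precision.

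Of 9335 probe sets, 60 controls were left out, as were 2443 that the annotation ties to no gene and 328 tied to several. For each of 5656 genes the probe set with the highest mean over all arrays was used. 315 genes had several probe sets, called in opposite directions for 10 of them, and 284 genes were on a probe set of the shared type. One mean per harvest was fitted by limma 3.58.1 under R 4.3.3 with default eBayes settings. Tests were two-sided, with Benjamini-Hochberg adjustment over 5656 genes, and the procedure was tested on simulated data. An exact two-sided permutation of 3 against 3 arrays was used for the controls.

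The comparison, the gene lists, the paralogue pairs and the tests were chosen with earlier results of these data known, so lists are described by counts and medians and carry no test. Genes were named by rule: the 12 largest rises and 12 largest falls without overlap, up to 4 members of each list and 1 of the opposite direction, members of opposite paralogue pairs, the 6 highest and 6 lowest between the ends, the 5 largest each way at 24 h against 1 h, reference genes and a fixed list of well-known genes. The largest changes were taken among called protein-coding genes on probe sets not of the shared type. Genes outside the rule are marked in the text. Same-numbered arrays of 340 h and 1 h deviated from their group means with correlations of 0.13, -0.1 and -0.062 over genes. Such values, from deviations around means of few arrays, cannot decide whether a number marks the same culture at both times. The main fit used no pairing, and no column repeated another. Alternatives varied the fit, the scaling, the probe set rule, the filter on low values, the block by replicate number and each replicate left out. Promoter sequences were not analysed here.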

Additional observations from a re-analysis of the deposited data

Results flagged for a closer look

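Probe sets outside the gene comparisons also differed between the harvests. Of the 2771 non-control probe sets that match no gene or several genes, 805 were higher (29.1%) and 398 were lower (14.4%) at 340 h than at 1 h in a limma fit over all non-control probe sets. Over all 9275 of those the shares were 29.9% higher and 28.9% lower. At least 2-fold differences were found for 514 that were higher and 173 that were lower, and the changes ran from -4.75 to 5.59. They are given because these probe sets take no part in the comparisons above, and the share that was higher lies near that of all probe sets. What they measure was not identified here.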

How the results depend on the processing

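The 3932 changed genes became 3729 to 3802 when a replicate was left out. The other ranges over those fits were 1708 to 1775 higher, 1982 to 2080 lower, 1129 to 1164 higher and 1330 to 1410 lower at least 2-fold, and 15 to 18 opposite pairs. They were 3031 to 3213 at 24 h, 3585 to 3659 at 120 h, and 920 to 992 alike at the ends and different between (545 to 584 higher, 363 to 408 lower). Centring on the median of 5 reference genes gave 3110 higher and 1123 lower, at least 2-fold 2146 and 747, and 310 alike at the ends and higher between. It moved the median change of all genes by 0.74, and its median passed from ALG9 or TAF10 at 1 h to UBC6 at 340 h, where TAF10 itself fell by 2.13. Among the genes named by the rule it alone turned a sign with a call on either side: GLG2 0.15, HTB1 0.0021, HYP2 0.054, RNR1 0.16, FKS1 0.081, MDH2 0.31, HPA3 0.68, SNR64 0.71 and IME1 0.59. List medians turned sign for 16 lists under it, 5 under array-median centring and 2 under quantile normalization. With each reference gene first set to its own mean, a choice made after seeing the data, the shift was 0.0097. That version gave 1778 genes higher and 2056 lower at 340 h, and 340 genes higher and 651 lower between the ends. Testing all non-control probe sets, also added later, gave 2774 higher. Of 300 called genes named by the rule, 279 stayed on the same side of the threshold under every alternative. With the replicate block 3990 genes changed (1830 higher, 2160 lower), and under that block no count moved by over 1.5 times. The numbers of 3 arrays a group and the signal of dim probe sets limit what can be called.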

Other observations

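Genes of the thiamine and biotin pathways and of glycerol were not described above. THI4, which makes the thiazole ring of thiamine, read 10.53, 10.46 and 10.84 at 340 h, against 7.23, 7.03 and 7.04 at 1 h. The biotin permease VHT1 fell by 1.74 ± 0.23. Of 21 genes for thiamine, pyridoxine and biotin 8 rose (38.1%) and 6 fell (28.6%), not far from the 31.9% and 37.7% of all genes. The glycerol phosphatases GPP1 and GPP2, which make glycerol, fell by 2.01 ± 0.21 and 2.69 ± 0.25, and DAK1, a dihydroxyacetone kinase, rose by 2.81 ± 0.17. In the pentose phosphate pathway ZWF1, its first enzyme, rose by 2.13 ± 0.21, whereas RKI1, a ribose phosphate isomerase that serves nucleotide synthesis, read 4.82, 4.33 and 4.25 at 340 h, against 8.40, 8.49 and 8.53 at 1 h. Butanediol dehydrogenases rose, BDH1 by 2.48 ± 0.18 and BDH2 by 2.92 ± 0.31, and ARO10, a decarboxylase on the way to fusel alcohols, rose by 2.84 ± 0.27.

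Of 42 genes for peroxisomes and fatty acid oxidation 24 rose and 8 fell, among them the activator ADR1, which rose by 2.75 ± 0.22, and POX1, the first oxidase of the pathway, which rose by 1.88 ± 0.20. Of 37 genes for ubiquitin and its ligases 19 rose and 2 fell, led by ROG3, an arrestin-like adaptor, with 9.67, 9.45 and 9.51 at 340 h, against 5.36, 5.20 and 5.69 at 1 h. ARG82, an inositol polyphosphate kinase first found through arginine metabolism, rose by 4.38 ± 0.18.

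ADE17, of purine synthesis, averaged 5.25 at 1 h, 10.53 at 12 h and 10.32 at 24 h, then 9.90 at 48 h, 8.73 at 60 h, 7.91 by 120 h and 7.67 by 340 h. HPF1, a wall mannoprotein linked to haze in wine, was 5.45 above 1 h at 24 h and 4.43 above it at 340 h, and FHN1, a relative of the eisosome protein Nce102, was 4.45 above it at both.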
